A study of Mus musculus with 3 samples.

Results

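Sites for the miR-15/16 family of microRNAs (miRNAs) were examined in a map of Argonaute 2 (Ago2) on RNA from N2A cells, a mouse neuroblastoma line. A site was taken as a match to positions 2 to 8, the seed, of miR-16-5p that lay in a 3′UTR stretch of at least 8 nt with peaks on its own strand from at least 2 of the 3 libraries. The rule found 681 such stretches with 750 sites in 611 genes, out of 30343 stretches of the same kind with any sequence in 7275 genes. The 263 matches that lay in the same 3′UTRs outside such stretches served as the comparison. The sites were selected on peak coverage itself, so how often and where the sites were covered is given as a description.

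The 3 libraries formed 1 group of untreated, basal cells, and no other condition, genotype or control precipitation is part of the comparisons. Crosslinked RNA was precipitated with an antibody to Ago2 and sequenced (HITS‐clip), each library from cells of this established line. The labels number the replicates 1 to 3 without saying whether they were separate cultures, so the spread between them may be technical. The values are intervals called by the authors, and read depth behind them is unknown.

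MiRNAs guide Ago2 to messenger RNAs mainly through pairing of the seed with the 3′UTR, and an adenosine opposite the first position of the miRNA, which Ago2 itself recognises, makes a 7-base match an 8mer. The miR-15/16 family is known as a brake on the cell cycle and on survival signals, with cyclins and BCL2 among its classical targets, and its founding members are lost in many chronic lymphocytic leukaemias. The family is encoded at several loci of the genome.

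The mature miRNAs that share this seed are shown because they could all use the same sites (RefSeq, GRCm38.p6). The seed is in capitals.
miR-15a-5p: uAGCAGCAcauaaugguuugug
miR-15b-5p: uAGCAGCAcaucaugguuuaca
miR-16-5p: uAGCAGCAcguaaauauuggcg
miR-195a-5p: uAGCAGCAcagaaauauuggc
miR-322-5p: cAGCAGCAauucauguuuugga
miR-497a-5p: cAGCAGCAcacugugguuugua
Beyond the seed the sequences diverge. Peaks can also mark the miRNA itself, and a peak whose central part overlapped the mature arm by at least 15 nt was present in all 3 libraries for Mir15a, Mir195a, Mir322 and Mir497, and in replicates 1 and 3 for Mir15b. In replicate 2 the peak over Mir497 was 431 nt wide and reached over the Mir195a arm as well. Peaks on the opposite strand also lay over the Mir322 arm (1 each in replicates 1 and 3), the Mir497 arm (2 in replicate 2 and 1 in replicate 3) and the Mir15b arm (1 in replicate 1). Mir16-1 and Mir16-2, which encode the same miR-16-5p, each had 1 peak over the arm, in replicate 1, and its central part did not reach 15 nt of overlap. MiR-195b, miR-6342, miR-6353 and miR-6419 share the seed as well and had no peak in any of the 3 libraries.

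The sites below are the 12 genes with an 8mer in the shortest stretches covered in all 3 libraries. The peaks around them reached farther, and the stretch covered in at least 2 libraries was 751 nt long in Dync1li2, 615 nt in Sec61a1 and 605 nt in Sgk1, against 48 nt in Tusc3. The 7 bases that pair with the seed are in capitals, read from GRCm38 in the direction of the transcript.
Dync1li2: aaaatccaacatataTGCTGCTagattatt
Slc4a7: tccaaagttcccattTGCTGCTaaatataa
Sec61a1: gctcttagggactctTGCTGCTatgcttgc
Tusc3: cattctagtactgaaTGCTGCTatcaccat
Mettl1: ctctgctgcctctatTGCTGCTatctctgt
Rnf8: ccgtcatgcaggcccTGCTGCTaccacccc
Cldn12: cttggtagaatgaaaTGCTGCTagatttta
Sgk1: gcttaaggaaagcatTGCTGCTacaaatat
Zbtb34: gtttgtaaataaaaaTGCTGCTagagcaac
Zfp622: gccgaatggttccttTGCTGCTacttcatt
Pip4p2: tatgcaagttcatttTGCTGCTaggttttc
Ywhag: cattgaaggaagctcTGCTGCTatgtccta
The stretch common to the 3 libraries was 30 nt long in Dync1li2 (match at chr8:104418184-104418190, minus strand), a light intermediate chain of the dynein motor, and 61 nt in Ywhag (chr5:135909626-135909632, minus strand), a 14-3-3 adaptor protein. Between these limits lay Slc4a7, a bicarbonate cotransporter, with 31 nt (chr14:14797897-14797903, plus strand), and Sec61a1, the pore of the endoplasmic reticulum translocon, with 33 nt (chr6:88504079-88504085, minus strand). Tusc3, a subunit of the enzyme that adds sugars to nascent proteins, had 47 nt (chr8:39130744-39130750, plus strand), and Mettl1, which methylates transfer RNAs, had 48 nt (chr10:127046178-127046184, plus strand). The kinase gene Sgk1 had 51 nt (chr10:21999532-21999538, plus strand). The flanks ranged widely in composition, from 31.7% A and T within 30 nt of the match in Rnf8, a ubiquitin ligase of the DNA damage response, to 81.7% in Dync1li2.

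The libraries were not alike. The table held 711377, 498071 and 829936 peaks for replicates 1, 2 and 3, yet replicate 1 covered 7.53% of all 5978 matches in 3′UTRs, against 21.4% in replicate 2 and 19.2% in replicate 3. Peaks on the opposite strand covered 2.94%, 3.73% and 3.83% of the matches. Genes that mark neuroblastoma and neurons carried 3′UTR peaks in at least 2 libraries in 9 of 14 cases, against 1 of 6 for myeloid cells, 2 of 5 for glia, 1 of 6 for endothelium and fibroblasts, and 0 of 3 for hepatocytes. Nefl and Th, a neurofilament and the rate-limiting enzyme of catecholamine synthesis, had no 3′UTR peak in the 3 libraries.

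Most sites rested on replicates 2 and 3. Of the 750 matches, 677 (90.3%) were covered in replicate 2, 677 in replicate 3 and 268 (35.7%) in replicate 1. Replicates 2 and 3 alone covered 481 (64.1%), replicates 1 and 2 alone 72, replicates 1 and 3 alone 73, and all of them 123 (16.4%). In the 1 remaining match the pair of libraries changed along the 7 bases. Without replicate 1, 547 stretches were left, but 184 without replicate 2 and 183 without replicate 3. The stretches had a median length of 127 nt (range 11 to 2205 nt), against 86 nt for all stretches, and 622 of them held 1 match. The shortest were those of Cry2, a circadian repressor, with 11 nt, Ddx19b, an RNA helicase of nuclear export, with 15 nt, and Etnk1, an ethanolamine kinase, with 19 nt. No match lay in a covered run just under the limit of 8 nt.

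Because 2 libraries defined each site, the other one could be used to ask whether sites were found again. Where replicates 2 and 3 both covered a match, replicate 1 covered it in 117 of 561 cases (20.9%), against 3 of 98 (3.06%) for matches of the same 3′UTRs covered in neither. For replicate 2 the shares were 62.9% of 186 and 48.9% of 45, and for replicate 3 they were 63.2% of 185 and 31% of 42. Compared within 3′UTRs by conditional logistic regression, the odds were 4.33 (95% interval 1.23 to 15.3), 2.78 (0.981 to 7.85) and 2.45 (0.934 to 6.42) times as high in replicates 1, 2 and 3. After Benjamini-Hochberg adjustment over the 3 libraries no p-value passed 0.05 (p = 0.0675 with n = 36 informative 3′UTRs, 0.0687 with n = 20 and 0.0687 with n = 21). The shares were close to those of any sequence. Of all 7-nt windows in stretches covered by both other libraries, 20.4%, 63.7% and 63% were covered in replicates 1, 2 and 3. With the same number of peaks drawn from each library the mean log odds ratio, 1.13 ± 0.3 (SD, n = 3), became 0.0795, and with peaks of 86 to 200 nt only it was 0.576.

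Matches to the miR-15/16 seed were denser within 10 nt of peak midpoints than in the flanks, and less so over a wider centre. Around the midpoints of 3′UTR peaks of at most 200 nt, the density of matches centred within 10 nt was 1.61, 1.7 and 1.2 times that found 190 to 290 nt away in replicates 1, 2 and 3 (1.51 ± 0.266, SD, n = 3). These ratios rest on 115, 435 and 296 matches at the centre. With the centre widened to 30 nt the ratio was 1.17, 1.15 and 0.957 (1.09 ± 0.116), so that replicate 3 fell on the other side of 1, while let-7a-5p had 1.25 ± 0.114 and miR-17-5p 1.35 ± 0.0414. A sign-flip test over 3 libraries cannot pass 0.05, and no test was made. Within 10 nt, among the 2573 7-mers with as many A or T bases and at least 1000 occurrences, whose median ratio was 0.889, the miR-15/16 match ranked 4th by the mean over libraries. The let-7 match (CTACCTC) ranked 1st with 1.83. The 2nd and the 3rd were GCTGCTA, which is the miR-15/16 match shifted by 1 base to take in the following A, and TTGCTGC, the match shifted the other way. In single libraries the rank of the miR-15/16 match was 9, 3 and 50. Among 11 seeds examined the mean ratio ran from 1.07 for miR-9-5p to 2.08 for miR-92a-3p, and the miR-103 and miR-107 match (ATGCTGC), which overlaps the miR-15/16 match by 6 bases, had 1.34. These densities, with both widths of the centre and the ranks, were computed after the data had been seen.

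**Figure D1:**
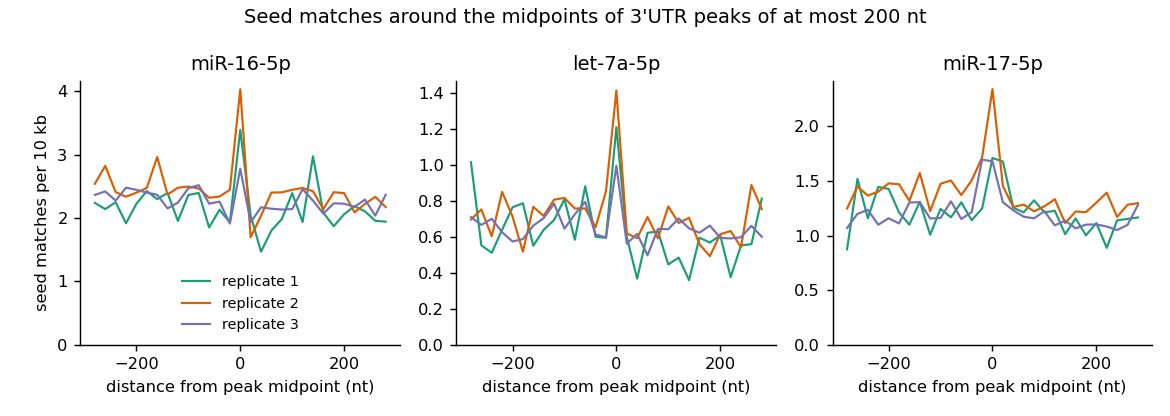
Density of seed matches (per 10 kb of 3′UTR, in bins of 20 nt) against distance from the midpoint of 3′UTR peaks of at most 200 nt, 1 line per replicate, for miR-16-5p, let-7a-5p and miR-17-5p. In the central bin the miR-16-5p density was 3.39, 4.03 and 2.78 per 10 kb in replicates 1, 2 and 3, above the flanks at 2.1, 2.37 and 2.31.

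Over whole 3′UTRs the enrichment was small. The sites were 12.5% of all 5978 matches (95% Wilson interval 11.7 to 13.4%), and 9.8% of all 7-nt windows of 3′UTRs lay in such a stretch. Coverage in all 3 libraries was found for 2.06% of matches and 1.62% of windows. Within the 611 3′UTRs that held a site, 74% of the 1013 matches and 37.1% of the windows were covered, a gap that the choice of these 3′UTRs brings with it. Of the 10701 7-mers found at least 1000 times the miR-15/16 match ranked 1432 by share covered. Among the 2573 with as many A or T it ranked 3 with 12.5%, where the median was 7.65%, and GCTGCTA ranked 2 with 13.1%. Other seeds were covered more often, with 19.9% for miR-92a-3p and 19% for miR-17-5p, while let-7a-5p had 10.6% and miR-9-5p 9.99%. The seeds differ in A and T content, and their order was not tested.

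**Figure D2:**
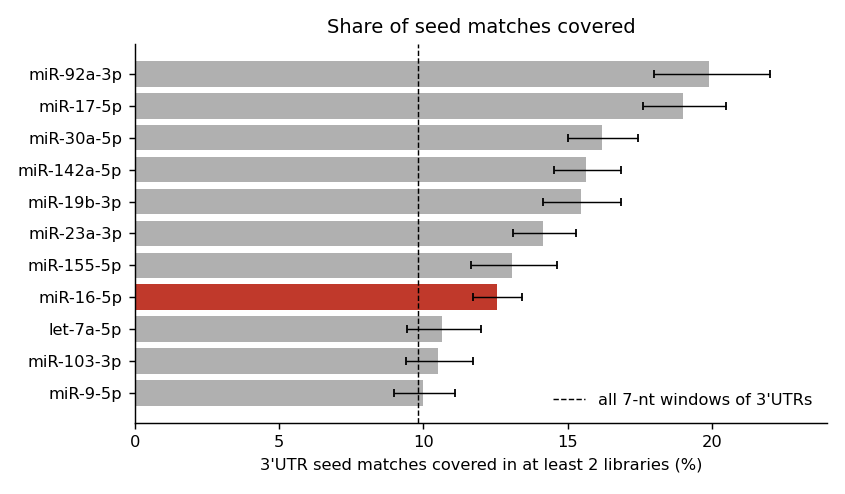
Percent of 3′UTR seed matches covered in at least 2 libraries for 11 seeds, with 95% Wilson intervals that cover counting error only, and a dashed line at 9.8%, the share of all 7-nt windows. The miR-16-5p bar (red) stands at 12.5%, between let-7a-5p at 10.6% and miR-92a-3p at 19.9%.

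The adenosine that turns a match into an 8mer was more frequent the more libraries covered a match. Of the 750 matches in stretches, 156 (20.8%, Wilson interval 18 to 23.8%) were followed by A, against 27 of the 263 others in the same 3′UTRs (10.3%, 7.15 to 14.5%) and 14% of matches in 3′UTRs without a site. Counting overlapping matches as 1, the share in 3′UTRs with a site was 8.93% for those covered in no library, 13.9% with 1, 20.5% with 2 and 31.6% with 3. Over all 3′UTRs the steps were 14.6%, 16.5%, 20.5% and 31.6%. The base A stood out from the rest: 17.8% of matches followed by A were covered, 13.4% of those followed by T, 12.3% by G and 8.9% by C.

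**Figure D3:**
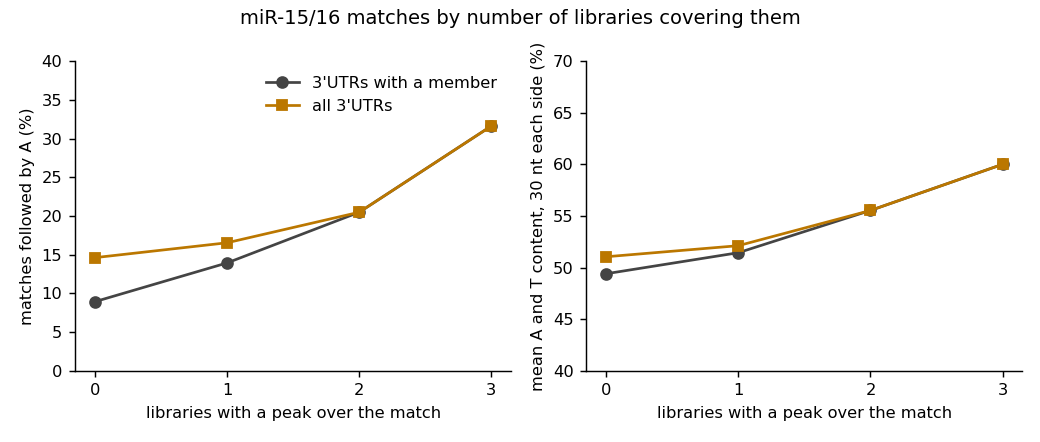
Share of miR-15/16 matches followed by A (left, percent) and mean A and T content of the 30 nt on each side (right, percent; axis from 40 to 70) against the number of libraries with a peak over the match, for 3′UTRs with a site (circles) and all 3′UTRs (squares). Both rise with the number of libraries, to 31.6% and 60% with 3.

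The test of the following A compared matches within the same 3′UTR, so that the transcript is the same on both sides. It used the 169 3′UTRs with both kinds, 205 covered and 233 other matches. A covered match had 1.89 times the odds of being followed by A (95% interval 1.07 to 3.34, conditional logistic regression), and adjusted over the 6 features examined this did not pass 0.05 (p = 0.0884, n = 169 3′UTRs). The odds ratio was 1.39, 2.56 and 2.16 with coverage in replicate 1, 2 or 3 alone. A pair of settings took it past the threshold. Without replicate 1 the odds ratio was 2.37 (adjusted p = 0.0287, n = 147 3′UTRs), and with 30 nt trimmed from each end of the peaks it was 3.5 (adjusted p = 0.0106, n = 93). In a fit with all 6 features, A and T content among them, it was 1.6 (adjusted p = 0.423, n = 169). Adjusted p-values over all 10 alternatives ran from 0.0106 to 0.423. These p-values describe the spread over 3′UTRs in these 3 libraries.

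Covered matches lay in surroundings richer in A and T than those of the other matches, and of the 6 features examined this one passed the threshold. The 30 nt on each side of a match were 57% A or T for covered and 50.4% for other matches of the 169 3′UTRs. Each 10 percentage points went with 2.24 times the odds of being covered (95% interval 1.71 to 2.93, adjusted p = 3.3e-08, n = 169 3′UTRs). The odds ratio was 1.73, 1.82 and 2.32 in replicates 1, 2 and 3 (mean log odds ratio 0.66 ± 0.16, SD, n = 3). The feature passed the threshold under all 11 alternatives, with odds ratios from 1.8 to 3.19. By the number of libraries covering a match, mean A and T content was 49.4%, 51.4%, 55.5% and 60%. In Kif23, a mitotic kinesin with an 8mer covered in all 3 libraries (chr9:61917466-61917472, minus strand), the flanks reached 83.3%.

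**Figure D4:**
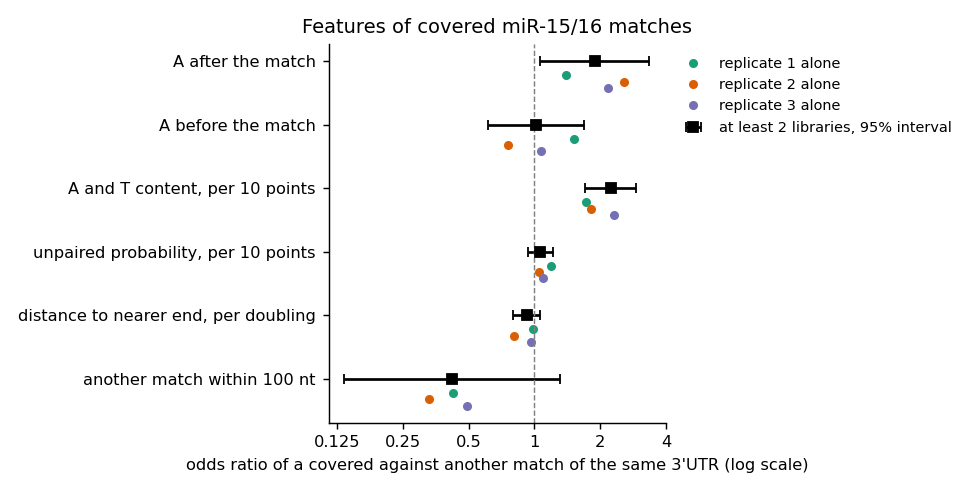
Odds ratio (log axis) of a covered against another miR-15/16 match of the same 3′UTR for 6 features, with 95% intervals (squares, coverage in at least 2 libraries, 169 3′UTRs) and the estimate from each library alone (circles). The interval for A and T content, 1.71 to 2.93, lies farthest from 1, and that for A after the match is 1.07 to 3.34.

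This richness in A and T was shared by covered sequence in general. In the same 169 3′UTRs, covered matches exceeded the others by 6.29 ± 12.4 percentage points (mean and SD of the differences within 3′UTRs). They were higher in 116 3′UTRs and lower in 47. Windows taken every 25 nt without regard to sequence differed by 5.47 ± 5.83 points. Covered windows were higher in 148 of the 3′UTRs and lower in 21. Averaged by 3′UTR, A and T content was 59.5% in covered and 54% in other windows, against 57% and 50.7% around covered and other matches. In single libraries the windows differed by 4.67, 3.3 and 4.72 points. The same fit around the matches of 10 other seeds gave an odds ratio above 1 for all 10, from 1.47 to 5.66, with the interval above 1 for 9. The miR-15/16 seed was the 4th highest of the 11. For the following A the other seeds ranged from 0.738 to 5.16, with intervals above 1 for let-7a-5p (5.16, 1.43 to 18.6) and miR-17-5p (2.28, 1.09 to 4.8). Neither feature was tested for a difference between seeds, and the miR-15/16 intervals overlapped those of each other seed.

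**Figure D5:**
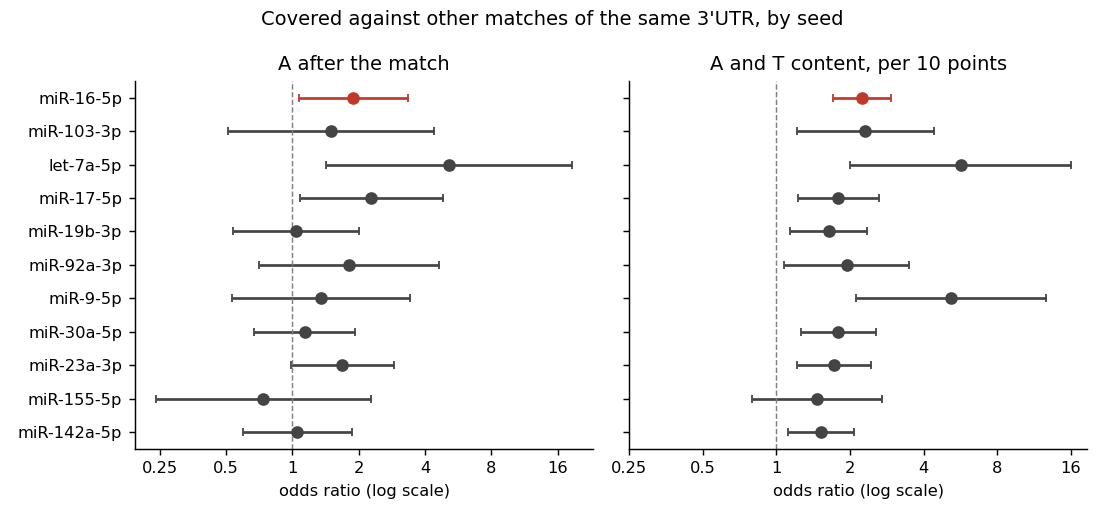
Odds ratios (log axis, 95% intervals) of covered against other matches of the same 3′UTR for A after the match (left) and A and T content per 10 percentage points (right), fitted separately for 11 seeds. The miR-16-5p values (red), 1.89 and 2.24, lie inside the range of the others.

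The other 4 features did not pass the threshold. An A before the match, which extends it to a miR-103 and miR-107 site, had an odds ratio of 1.02 (95% interval 0.611 to 1.69, adjusted p = 0.948, n = 169). The direction changed with the setting. The odds ratio was 2.1 with all 3 libraries required, 1.7 with trimmed peaks, 2.19 without replicate 2 and 1.54 without replicate 3, but 0.837 with peaks drawn to equal number, 0.851 with all 6 features, 0.87 without TGC runs, 0.947 without replicate 1 and 0.955 with stretches of at least 20 nt. It preceded 19.9% of matches in stretches and 14.1% of the others, and 147 of the 681 stretches (21.6%) held a miR-103 and miR-107 match. A site preceded by A contains such a match by definition, so that share largely restates the preceding A. In all, 149 sites were preceded by A, and the stretches held 152 miR-103 and miR-107 matches. For sites covered in all 3 libraries, 37 of 123 were preceded and 37 followed by this base. The predicted probability that the match was unpaired averaged 46.6% for covered and 44.7% for other matches (odds ratio 1.07 per 10 points, adjusted p = 0.415, n = 169). With replicate 2 left out this odds ratio was 1.35 (adjusted p = 0.0291, n = 64), with replicate 3 left out 1.29 (adjusted p = 0.0431, n = 67), and with all 3 libraries required 1.55 (adjusted p = 0.00548, n = 43). In a fit with all 6 features it was 0.962. Another match within 100 nt had an odds ratio of 0.419 (0.134 to 1.31, adjusted p = 0.269, n = 169). The distance to the nearer end of the 3′UTR had 0.92 per doubling (0.798 to 1.06, adjusted p = 0.372, n = 169).

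Sites lay a median of 850 nt past the stop codon (lowest 1 nt, highest 10459 nt, in Ago2) and other matches of the same 3′UTRs 1520 nt. The other matches also lay in longer 3′UTRs (median 3713 nt, against 2549.5 nt for matches in stretches), so the distance from the stop codon was compared within 3′UTRs, after the data had been seen. The odds of being covered changed by a factor of 0.871 for each doubling of the distance (95% interval 0.769 to 0.987, unadjusted p = 0.0309, n = 169 3′UTRs). The log odds ratio was -0.003, -0.13 and -0.11 in replicates 1, 2 and 3, so replicate 1 showed next to none of it.

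Among 24 genes known as targets of the family, 22 held a match and 15 of these held a site. The list was chosen with earlier results of these data known, so these counts are a description. For all genes with a match the share with a site was 14.4%. Among genes with a match and any stretch in the 3′UTR it was 71.4% for the listed genes (15 of 21) and 27.3% for all genes (611 of 2236). The 3′UTRs of the listed genes were also more covered as a whole, with a median of 27.6% of their length in stretches, against 1.73% for all genes with a match. The part this plays in the count was not tested. Bmi1 and Jun held no match.

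The listed cyclins all held sites. Ccnd1, Ccnd2 and Ccnd3, the D-type cyclins that open the way through G1, each held a site, as did Ccne1, the cyclin that drives entry into S phase. The single Ccnd1 match (chr7:144930395-144930401, minus strand) was covered in replicates 2 and 3 over 129 nt, in a setting of 36.7% A and T. The Ccnd2 8mer (chr6:127128542-127128548, minus strand) was covered in replicates 1 and 3 and not in replicate 2. The Ccne1 8mer (chr7:38098024-38098030, minus strand) was covered in replicates 2 and 3. Wee1, the kinase that holds CDK1 inactive, carried 2 sites, and its 8mer (chr7:110142668-110142674, plus strand) was covered in all 3 libraries.
Wee1: cttgccttgtgaattTGCTGCTattttagt
Ccne1: ctcttattttgtaagTGCTGCTatgtctat
Ccnd2: taatgtttcacggtgTGCTGCTattttaga
Ccnd1: ttgtgcatgccaccaTGCTGCTggcccggg
These show the 3 8mers beside the Ccnd1 match, which is followed by G. The 8mer of Ppm1d, a phosphatase that dampens p53, was covered in replicates 2 and 3 (chr11:85346974-85346980, plus strand).

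Several classical targets had matches without a site. The 8mer of Bcl2, the inhibitor of apoptosis (chr1:106540799-106540805, minus strand), was covered in no library, and neither were the matches of Fgf2, Bace1 and Cdk6. A and T content around these uncovered matches ran from 40% in Bace1 to 71.7% in Cdk6, with 68.3% in Fgf2 and 56.7% in Bcl2. The 8mers of Cdc25a, a phosphatase that activates cyclin-dependent kinases, and of Chek1, a checkpoint kinase, were each covered in 1 library (replicate 1 and replicate 2). The 2 matches of Mapk3 were each covered in 1 library, a different one. Of these 7 genes, 6 had a stretch with peaks from at least 2 libraries elsewhere in the 3′UTR, from 0.137% of its length in Cdk6 to 19.8% in Mapk3, and Fgf2 had none.

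Signalling and neuronal targets completed the list. Myb, a transcription factor of immature cells, had its 8mer covered in all 3 libraries (chr10:21125460-21125466, minus strand), and so did Smad7, an inhibitor of TGF-beta signalling. Coverage in all 3 libraries was also found for the receptor gene Fgfr1, for Rictor, a subunit of the mTORC2 kinase complex, and for App, the amyloid precursor protein. App offers a comparison within 1 transcript: its match 556 nt past the stop codon, with 63.3% A and T around it, was covered in all 3 libraries, and that at 1462 nt, with 40%, in none. Vegfa, Map2k1 and Acvr2a had sites in 2 libraries. In Acvr2a, an activin receptor, the match at 498 nt was covered in replicates 2 and 3 and that at 2499 nt in replicate 2 alone.
App, covered: tcttactgtacagatTGCTGCTtctgctct
App, not covered: agaggccatggaggaTGCTGCTtactggct
Myb: tttagcctgtagtcaTGCTGCTagctagtg

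Other pathways were taken from lists of fixed membership, which were chosen with earlier results of these data known. Of cell cycle genes with a match, 12 of 21 held a site, of TGF-beta, activin and BMP genes 8 of 20, of miRNA machinery and mRNA decay genes 8 of 19, and of growth factor, PI3K and MAP kinase genes 11 of 30. The counts were 5 of 15 for chromatin and transcription regulators, 7 of 22 for ubiquitin ligases and deubiquitinases, 5 of 17 for axon guidance and neurotrophin genes, 2 of 7 for apoptosis genes and 3 of 13 for Wnt genes. Beside these stands 14.4% for all genes with a match, but in each list a larger part of the genes also had some stretch in the 3′UTR, from 64.7% to 100%, than among all genes with a match, 52.6%. Among genes with such a stretch the share with a site was 33.3% in both the apoptosis list and the Wnt list, from 41.2% to 57.1% in the other 7, and 27.3% for all genes. Having some stretch does not make coverage equal. Over genes with a match, the median share of 3′UTR length in stretches was 1.73% for all genes. It was 37.5% in the cell cycle list and 33.1% in the TGF-beta, activin and BMP list. The lowest values were 7.78% in the Wnt list and 1.958% in the axon guidance and neurotrophin list. The part this plays in the shares was not tested. The lists overlap, and none of them was tested.

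Of miRNA machinery and mRNA decay genes, 3 of the 19 with a match held a site covered in all 3 libraries, beside 112 of all 4247 genes with a match. Some stretch was present in 84.2% of the former and 52.6% of the latter, and the median share of 3′UTR length in stretches was 19.7% and 1.73%. Other lists were alike or higher, with 2 of 7 apoptosis and 3 of 17 axon guidance and neurotrophin genes, or lower, with 1 of 20 TGF-beta, activin and BMP genes. Ago2, the Argonaute protein itself, held a site covered in all 3 libraries 10459 nt past its stop codon (chr15:73096442-73096448, minus strand), followed by T. Btg2 and Tob2, which bring the CCR4-NOT deadenylase to messages, held 2 and 1, and one of those in Btg2 was an 8mer (chr1:134076490-134076496, minus strand). The apoptosis genes with sites were Pdcd4, an inhibitor of translation, and Pdcd6ip, a factor of membrane remodelling, both covered in all 3 libraries. In the Wnt list they were Dvl1, Dvl2 and the co-receptor gene Lrp6, with the Dishevelled genes covered in all 3 libraries. Of axon guidance and neurotrophin genes, Ret, a receptor of GDNF family signals, had an 8mer (chr6:118152695-118152701, minus strand), and Sema4b and Ngfr had 7-base matches. Ube3a, Mapk8 and Tet3 also had 7-base matches covered in all 3 libraries.

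Sites seldom came in groups. With each match counted, 502 of the 611 genes held 1 site and 109 held more. With overlapping matches, as in runs of TGC, counted as 1, these were 540 and 71, and sites are counted that way in what follows. Only 17 stretches held 2 or more matches that did not overlap. Uhmk1, a kinase that acts on stathmin and splicing factors, had 5 sites among 6 matches in 6583 nt, and 1 of the 5 was covered in all 3 libraries. Lnpep, an aminopeptidase of insulin-regulated vesicles, had 5 sites, all of its matches, in 8339 nt. Its 8mer 3770 nt past the stop codon (chr17:17525972-17525978, minus strand) and a 7-base match at 3794 nt lay in the same stretch, covered in all 3 libraries.

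Parvb, Pafah1b1, Cpeb2 and Kif1b were among the genes with 3 sites each. Pafah1b1 (Lis1), a partner of dynein in neuronal migration, had an 8mer and a 7-base match covered in all 3 libraries, 1953 and 2249 nt past the stop codon. In Cpeb2, a regulator of translation through the poly(A) tail, 3 sites lay in 1 stretch of 778 nt, and the match farthest from the stop codon, an 8mer with 71.7% A and T around it, was covered in all 3 libraries. Kif1b, an axonal kinesin, had 3 sites with 56.7 to 71.7% A and T around them, and its remaining match, an 8mer with 40%, was covered in no library.
Cpeb2: aagctgtattagcttTGCTGCTatataggt
Kif1b, covered in all 3 libraries: aaagaatgattgtgtTGCTGCTcttggaag
Kif1b, not covered: gcctgcaacagaggcTGCTGCTagcccttt
In Kif1b the uncovered match was thus the 8mer. In the 3′UTRs with a site, 10 matches followed by A were covered in no library, and of the 117 covered in all 3 libraries 37 were followed by A.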

How the data were processed

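Peaks of Ago2 HITS‐clip from 3 samples of N2A cells, 1 group, were used. Per the submitters' processing notes FastQC, cutadapt and STAR were among the tools and mm10 (GRCm38) was the build. The peak caller and its threshold are not given in the sources used here. The authors deposited 1 table of peaks called per sample, with position, strand and a score of unstated unit that was 60 for nearly all peaks and was not used. There were 0 further columns of values per sample. Starts were read as counted from 0, and the outer 30 nt at each end of a peak as possible padding, both inferred from the values. Whole peaks count as coverage, and peaks trimmed by 30 nt at each end were an alternative. Other builds were not compared.

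The longest 3′UTR of each of 21028 protein-coding genes (GENCODE mouse M21), without the stop codon, was spliced from GRCm38.p6. A match covered in a library lay wholly under its peaks, and 23 matches shared by a second gene were counted once. Covered and other matches were compared by conditional logistic regression with 1 stratum per 3′UTR (statsmodels 0.14.6), overlapping matches counted as 1, Wald p-values (two-sided) and Benjamini-Hochberg adjustment over 6 features. Unpaired probability came from ViennaRNA 2.7.2 (window 80 nt, span 40 nt). A library was held out by defining sites from the other pair. The regression was tried on simulated coverage of 3′UTRs drawn at random from those with more than 1 match. That was not the set used in the fits, so it does not check the intervals at their sample size. Wilson intervals are at the 95% level and cover counting error only. Named genes were every gene of the known-target list, the 12 8mers in the shortest stretches covered in all 3 libraries, the 8 genes with the most sites that do not overlap (ties by shorter 3′UTR), the sites nearest the 8-nt limit, and listed genes with a site in all 3 libraries. Lists of genes and markers had fixed membership. The members and lists were chosen with earlier results of these data known. Sequences of 23 matches on chromosome 18 are not reported, and some genes that the rule names are not reported here. Computation used Python 3.11.15.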

Additional observations from a re-analysis of the deposited data

Results flagged for a closer look

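Peaks on the opposite strand, which no comparison above uses, also formed stretches over miR-15/16 matches. Of 5978 matches, 38 (0.636%) lay in stretches covered by opposite-strand peaks of at least 2 libraries against 750 on the same strand. The share was near that of all 7-nt windows of 3′UTRs in such stretches, 0.568%, and the difference was not tested. Matches were examined on 3′UTR annotation alone, and genes transcribed from the other strand were not examined.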

How the results depend on the processing

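Of 87 alternatives, 58 kept a result's direction and its side of the threshold, or for counts and shares its size, 8 turned its direction, 5 took it past the threshold and 16 moved a count or value. The number of stretches, 681, was 115 with all 3 libraries required, 451 with peaks of 86 to 200 nt, 301 with trimmed peaks, 453 when 498071 peaks were drawn from each library, and 183 to 547 with 1 library left out. The share of matches covered was 2.06%, 8.31%, 5.39%, 8.31% and 3.26 to 10.1% under the same settings. On the log odds scale, the following A (0.64) passed the threshold with trimmed peaks (1.25) and without replicate 1, and ran from 0.52 to 0.86 with 1 library left out and was 0.47 with all 6 features in 1 fit. Unpaired probability (0.063) passed with all 3 libraries (0.44) and without replicate 2 or 3, ran from 0.094 to 0.30 with 1 library left out, and reversed to -0.039 with all 6 features in 1 fit. The A before the match (0.017) reversed to -0.046 with stretches of at least 20 nt, -0.18 with peaks drawn to equal number, -0.16 with all 6 features and -0.14 without TGC runs, was 0.74 with all 3 libraries and 0.53 with trimmed peaks, and ran from -0.054 to 0.78 with 1 library left out. Distance to the nearer end (-0.084) reversed to 0.0059 with all 3 libraries and ran from -0.074 to 0.0020 with 1 library left out. Held-out coverage (1.13) moved to 0.080 with peaks drawn to equal number and to 0.58 for widths of 86 to 200 nt, and with trimmed peaks could be fitted for replicate 1 alone (0.92). The causes were not tested. The density at peak midpoints (1.51) was 1.09 with the centre widened from 10 to 30 nt, 1.58 with peaks of 86 to 200 nt and 1.41 to 1.66 with 1 library left out, and A and T content passed in all 11. The fits of other seeds, window composition, stop codon distance and midpoint density were chosen after seeing the data. No paired analysis was possible because there is 1 group. Depth is unknown, so an uncovered match is not shown to be unbound.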
